A study of Mus musculus with 53 samples.

Results

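Collagens are the main structural proteins of the space between cells. Each molecule is built from alpha chains wound around one another, and each chain has its own gene. Fibrillar collagens bear tension in the heart wall, type IV collagen forms the sheet of every basement membrane, and type VI collagen lies between fibrils and cells. In the heart, fibroblasts are known as the chief source of fibrillar collagen, while endothelial, mural and muscle cells all lie on basement membranes, and pressure overload is known for interstitial fibrosis. The genes described here are the 43 of 34306 in the deposited expression table whose symbol is Col, a type number, the letter a and a chain number. By class they were 11 fibrillar genes, 6 of type IV, 6 of type VI, 9 of the FACIT class (collagens that sit on fibril surfaces), 3 short-chain network genes, 2 multiplexins (which lie beside basement membranes), 4 transmembrane genes and 2 others.

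Hearts of adult male mice carried a tagged ribosomal protein, and translating ribosome affinity purification (TRAP) pulled down the tagged ribosomes with the mRNA on them. Total cytoplasmic RNA of the same kind of heart was sequenced as input. In the CAG line the tag is on in every lineage, and in the Tie2 line Tie2-Cre, a recombinase known to be active in endothelium and in blood cells, turns it on. These descriptions of the lines, and a mixed 129/C57BL background, stand in the labels of the series' first deposit, while the 12 columns match libraries of a later deposit whose labels name the line and no allele. CAG hearts had ascending aortic banding, which makes the heart pump against a constriction, or a sham operation without the ligature, each with 2 input and 2 TRAP libraries, and no source names the time after surgery. CAG and Tie2 hearts without surgery gave 1 input and 1 TRAP library each. RNA was pooled before poly(A) selection, and whether the libraries of 1 group stem from different mice is not stated, so a p-value here speaks only of library-to-library spread, which may be technical.

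Depth ran from 26568988 to 94878619 reads per library. Cardiomyocyte markers summed to between 69288 and 90348 RPKM (reads per kilobase of transcript, scaled to library depth) in the other 11 libraries and to 4377 RPKM in Tie2 TRAP, where all 12 of them were more than 2-fold below input and all 14 endothelial markers were more than 2-fold above it. All 10 macrophage markers were also more than 2-fold above input there. On the log2(RPKM + 1) scale, 34.1% of all genes with 1 RPKM in either Tie2 library were more than 2-fold above input. Among the operated libraries band TRAP 1 had the highest endothelial marker sum, 1758 RPKM against 924 to 1139 RPKM in the other 7, and Fabp4 alone made up 1603 RPKM of it. The other 13 endothelial markers summed to 155 RPKM there, within their range of 139 to 196 RPKM in the operated libraries.

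Col4a1 and Col4a2, the genes of the commonest basement membrane molecule, face away from each other from nearly the same spot. Col8a1 and Col23a1 gave the largest banding and Tie2 differences among the members with at least 1 RPKM in a library compared. Col23a1 reached 1 RPKM only in Tie2 TRAP, so its place rests in part on that choice. The promoter windows of these genes are shown, 250 bases before to 50 bases after the RefSeq start site in GRCm38.p6, 5′ to 3′ on the strand of the gene. Capitals mark any of 4 motifs on either strand: the CCAAT box, the GC box (written GGGCGG), the TATA box with letters TATAAA, and the AP-1 site, which reads TGACTCA. The windows are chr8:11312777-11313076 on the minus strand for Col4a1, chr8:11312555-11312854 on the plus strand for Col4a2, chr16:57754688-57754987 on the minus strand for Col8a1 and chr11:51289670-51289969 on the plus strand for Col23a1.
Col4a1: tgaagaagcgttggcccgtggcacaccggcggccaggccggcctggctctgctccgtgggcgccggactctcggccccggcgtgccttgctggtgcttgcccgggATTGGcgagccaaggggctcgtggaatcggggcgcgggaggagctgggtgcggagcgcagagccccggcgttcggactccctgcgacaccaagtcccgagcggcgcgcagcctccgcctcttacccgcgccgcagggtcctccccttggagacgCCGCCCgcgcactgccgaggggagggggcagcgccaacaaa
Col4a2: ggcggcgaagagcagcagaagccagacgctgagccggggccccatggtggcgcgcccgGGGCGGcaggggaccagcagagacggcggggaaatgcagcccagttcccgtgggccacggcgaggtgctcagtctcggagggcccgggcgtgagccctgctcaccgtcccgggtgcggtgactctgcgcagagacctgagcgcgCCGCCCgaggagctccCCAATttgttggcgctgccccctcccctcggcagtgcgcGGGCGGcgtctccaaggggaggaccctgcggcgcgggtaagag
Col8a1: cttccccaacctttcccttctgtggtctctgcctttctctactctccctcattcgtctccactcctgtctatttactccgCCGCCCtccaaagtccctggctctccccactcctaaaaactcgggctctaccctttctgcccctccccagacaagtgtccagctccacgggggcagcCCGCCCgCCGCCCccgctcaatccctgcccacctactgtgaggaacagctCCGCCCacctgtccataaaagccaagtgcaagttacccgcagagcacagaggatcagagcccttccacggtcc
Col23a1: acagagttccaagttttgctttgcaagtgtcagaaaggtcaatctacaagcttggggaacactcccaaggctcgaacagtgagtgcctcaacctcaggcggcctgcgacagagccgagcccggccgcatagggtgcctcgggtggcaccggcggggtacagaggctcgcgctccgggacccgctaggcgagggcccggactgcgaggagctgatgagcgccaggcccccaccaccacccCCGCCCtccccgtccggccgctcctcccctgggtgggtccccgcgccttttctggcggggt
The start sites of Col4a1 and Col4a2 lie 21 bases apart, their windows share 78 bases, and the first bases of their transcripts overlap, so reads there could not be assigned to a gene in libraries that do not mark strand. RefSeq windows matched 35 of the 43 genes, with 38 windows. The GC box GGGCGG stood in 23 of these 38 windows (60.5%) against 35.7% of all promoter windows, and none of the other 3 motifs was more frequent in collagen windows than in all. CCAAT was in 34.2% against 37.4%, TATAAA in 13.2% against 13.6% and TGACTCA, the AP-1 site, in 2.63% against 5.2%. Such matches describe letters, not bound sites.

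Most of the family was low in these hearts. Of the 43 genes, 17 reached 1 RPKM in at least 2 libraries and entered the tests. They were 6 fibrillar genes (Col1a1, Col1a2, Col3a1, Col5a1, Col5a2, Col5a3), 3 of type IV (Col4a1, Col4a2, Col4a5), 3 of type VI (Col6a1, Col6a2, Col6a3), the FACIT genes Col14a1 and Col16a1, the multiplexins Col15a1 and Col18a1, and the short-chain gene Col8a1. Of the other 26, 23 stayed under 1 RPKM in all 12 libraries, and Col4a4, Col13a1 and Col23a1 passed 1 RPKM only in Tie2 TRAP. The cartilage collagen gene Col10a1 had 2 reads in 1 library and Col19a1 had 1 read in 1 library, and a count of 0 allows up to 3 reads. Just inside the filter were Col16a1, at up to 2.45 RPKM, and Col14a1, at up to 4.38 RPKM, and just outside it Col4a3 reached 0.891 RPKM and Col6a6 0.855 RPKM.

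**Figure D1:**
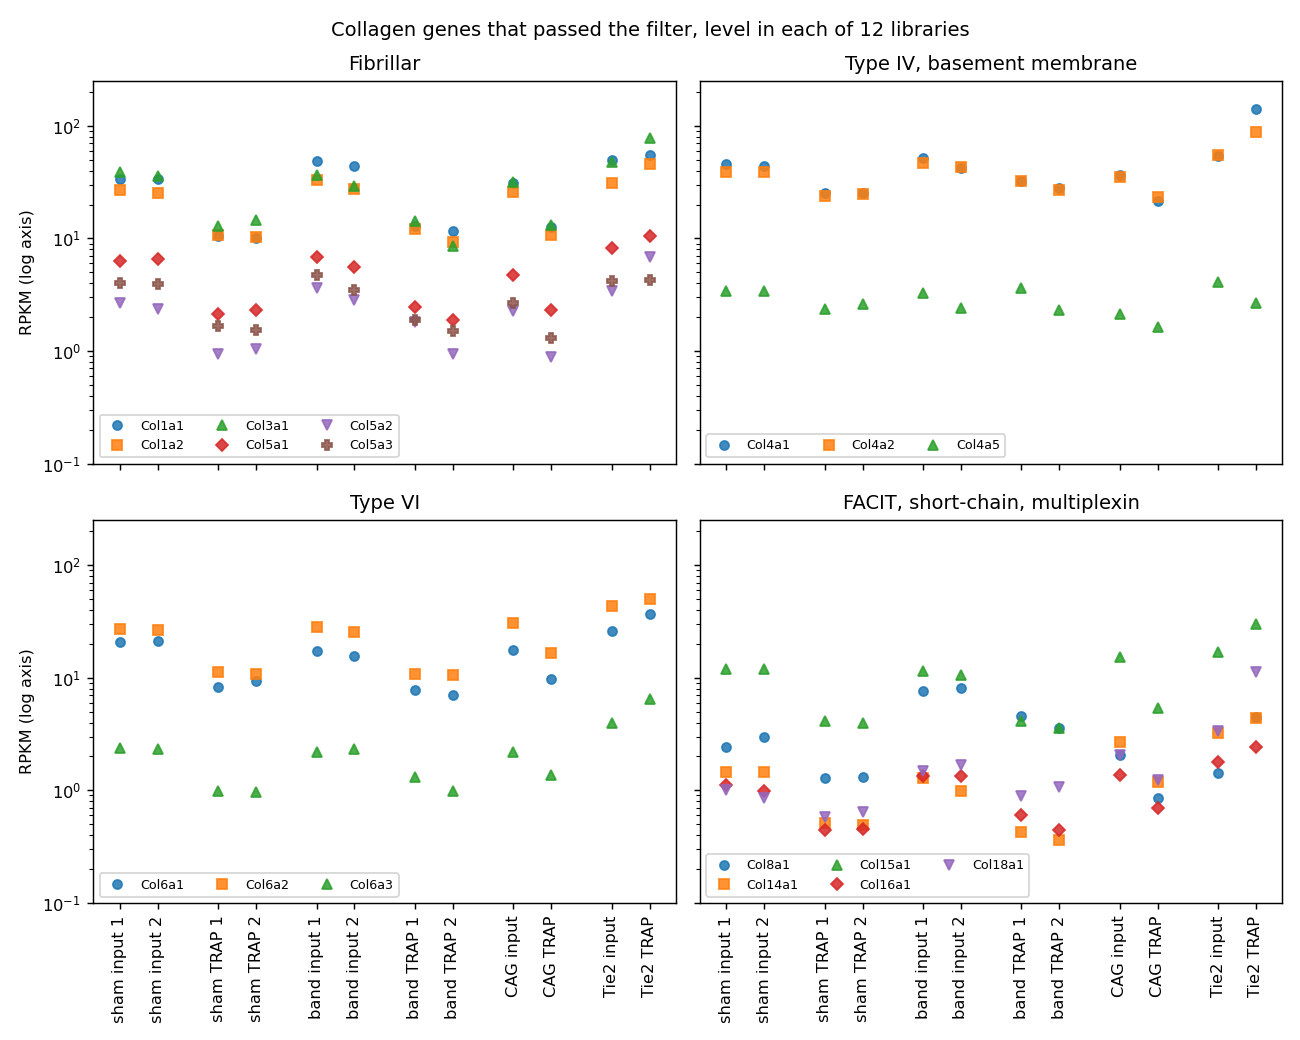
RPKM (log axis) of the 17 collagen genes that passed the filter in each of the 12 libraries, in panels by class, 1 point per library. Input libraries of CAG hearts lie above their TRAP libraries for most genes, and the Tie2 TRAP library at the right holds the highest point of 14 of the 17 genes.

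In sham input the order of levels per length was Col4a1, Col4a2, Col3a1, Col1a1, Col6a2, Col1a2, Col6a1 and Col15a1. Col4a1 stood at 44.9 ± 1.06 (SD, n = 2), Col4a2 at 38.8 ± 0.329 (SD, n = 2) and Col3a1 at 37.4 ± 2.02 (SD, n = 2) RPKM, and the libraries of the last pair overlapped. Col1a1 stood at 33.9 ± 0.146 (SD, n = 2), Col6a2 at 26.8 ± 0.545 (SD, n = 2) and Col1a2 at 26.1 ± 0.847 (SD, n = 2) RPKM, and the libraries of Col6a2 and Col1a2 also overlapped. Type I, III, IV and VI chains thus held the top of the list. Reads of all 43 genes made up 0.159% and 0.155% of sham input reads, and 0.0707% and 0.0723% of sham TRAP reads. The shares in banded hearts were 0.181% and 0.158% in input and 0.0876% and 0.0720% in TRAP. In both operations the TRAP share was below the input share in every library.

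By class, fibrillar genes held 41.4% and 40.7% of the summed collagen RPKM of sham input and 32.6% and 32.7% of that of sham TRAP. Type IV genes held 32.7% and 32.8% in sham input and 43.2% and 43.3% in sham TRAP. The order of the classes was thus reversed between the fractions, and the ranges did not overlap. After banding, fibrillar genes held 43.5% and 42.1% of input and 31.3% and 28.3% of TRAP, and type IV genes 33.2% and 32.8% of input and 47.0% and 47.9% of TRAP. Type VI held 18.8% and 19.1% of sham input and 15.5% and 16.3% of band input, lower in both banded libraries.

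**Figure D2:**
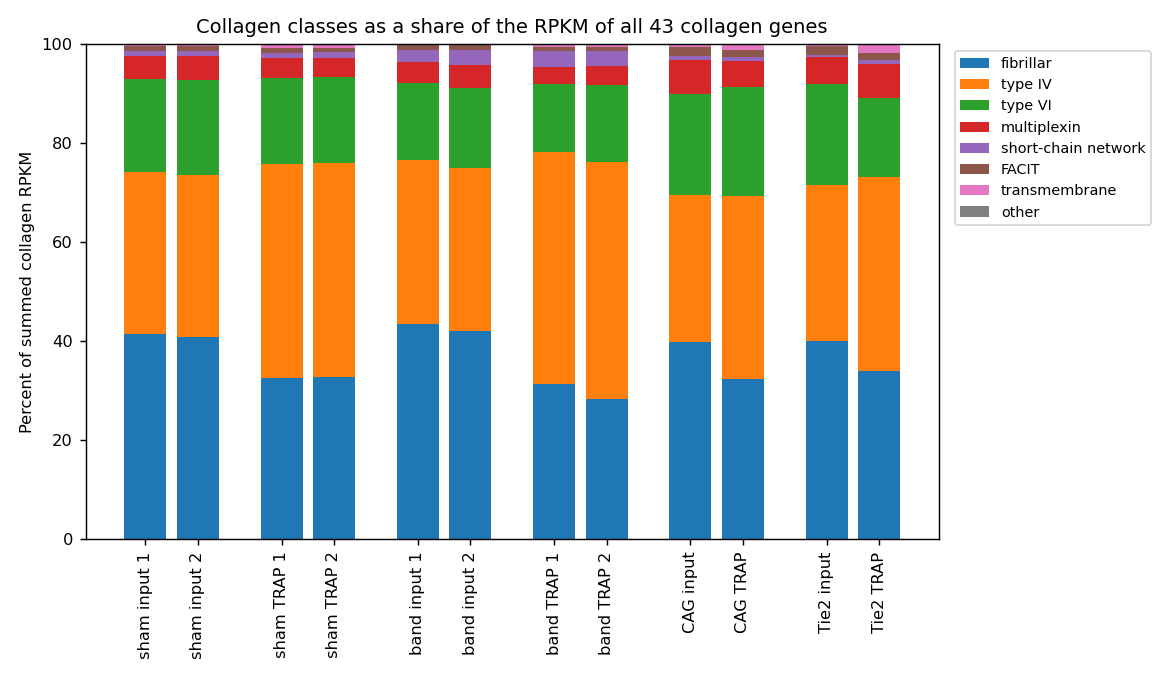
Percent of the summed RPKM of the 43 collagen genes held by each class, 1 stacked bar per library. Fibrillar genes take 41.4% of sham input 1 and 32.6% of sham TRAP 1, type IV 32.7% and 43.2%, and the short-chain share is larger in the 4 banded libraries than in the 4 sham libraries.

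The first comparison asked which transcripts were higher or lower in TRAP RNA than in input RNA, within sham hearts and within banded hearts. Whether all cell types carried the tag and gave up their RNA alike was not tested. The contrast is thus one of fractions, not of ribosome loading. Most expressed collagen genes were lower in TRAP. By limma on log2(RPKM + 1), with Benjamini-Hochberg adjustment over all 11654 genes tested and calls at adjusted p under 0.05, 15 of the 17 were lower and 0 higher after sham, where 24.5% of all genes tested were called lower. After banding 16 of 17 were lower and 0 higher, where 26% of all genes were called lower. The median log2 fold change of the 17 was -0.82 after sham and -0.85 after banding, against -0.09 and -0.10 over all genes tested. A log2 fold change on the RPKM + 1 scale understates the change of low genes. In bulk tissue, fewer cells of a type and less RNA per cell cannot be told apart.

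On this scale Col1a1 and Col3a1 had the widest gaps in both operations, and the multiplexin Col15a1 and the other type I chain came next. Col1a1, the alpha 1 chain of type I collagen, stood at 34.0 and 33.8 RPKM in sham input and 10.6 and 10.2 in sham TRAP, and at 49.0 and 44.2 in band input and 13.0 and 11.5 in band TRAP. Inputs and TRAP libraries lay far apart in both operations, by 3.27-fold and 3.80-fold of the mean RPKM. The log2 fold changes were -1.62 (SE 0.09, limma adjusted p = 0.000133) after sham and -1.84 (SE 0.09, adjusted p = 6.6e-05) after banding. Its partner Col1a2, the alpha 2 chain, had 26.7 and 25.5 RPKM in sham input, 10.6 and 10.2 in sham TRAP, 32.8 and 27.5 in band input and 12.1 and 9.33 in band TRAP. Its log2 fold changes were -1.25 after sham and -1.42 after banding, with limma adjusted p of 0.00112 and 0.00056. Col3a1, type III collagen of reticular fibres, had 38.8 and 35.9, 12.8 and 14.5, 36.4 and 29.4 and 14.2 and 8.60 RPKM in the same order. Its log2 fold changes were -1.39 after sham and -1.48 after banding, with limma adjusted p of 0.00337 and 0.00229. In the operated hearts none of these 3 genes had a TRAP library as high as any input library.

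Type V chains, which take part in starting fibrils and limiting their width, were lower in TRAP as well. Col5a1 had 6.35 and 6.51 RPKM in sham input, 2.12 and 2.33 in sham TRAP, 6.89 and 5.58 in band input and 2.46 and 1.88 in band TRAP, with log2 fold changes of -1.20 and -1.19. Col5a3 had 3.99 and 3.92, 1.68 and 1.53, 4.71 and 3.47 and 1.87 and 1.50 RPKM in that order, with log2 fold changes of -0.93 and -0.91. Col5a2 had 2.65 and 2.38, 0.933 and 1.05, 3.60 and 2.85 and 1.82 and 0.936 RPKM, with log2 fold changes of -0.82 and -0.85. The Col5a2 call after sham (adjusted p by limma = 0.0128) was lost without sham input 1 (0.0813), sham input 2 (0.0552), sham TRAP 1 (0.0731) or sham TRAP 2 (0.0561), and the call after banding (adjusted p = 0.0103) was lost without band input 1 (0.0732).

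Among the basement membrane chains the gap was narrower than for type I and type III for Col4a1 and Col4a2, and was not called for Col4a5. Col4a1 had 45.7 and 44.2 RPKM in sham input, 25.1 and 25.3 in sham TRAP, 51.9 and 42.6 in band input and 32.2 and 28.1 in band TRAP. Col4a2 had 39.0 and 38.6, 23.9 and 24.7, 46.5 and 42.9 and 32.6 and 27.0 RPKM in that order. Mean RPKM in input exceeded that in TRAP by 1.78-fold and 1.57-fold for Col4a1 and by 1.60-fold and 1.50-fold for Col4a2. The log2 fold changes were -0.81 and -0.63 for Col4a1 and -0.65 and -0.57 for Col4a2, all called. Col4a5, an X-linked chain of other basement membranes, had 3.38 and 3.44 RPKM in sham input, 2.35 and 2.63 in sham TRAP, 3.26 and 2.42 in band input and 3.61 and 2.32 in band TRAP. After sham its TRAP libraries lay below its inputs without overlap (log2 fold change -0.34, limma adjusted p = 0.164, not called). It was called lower after sham without band TRAP 1 or band TRAP 2, where calls over all genes tested rose as well. After banding its libraries overlapped (limma adjusted p = 0.888).

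The type VI chains behaved alike in direction, and on the log2(RPKM + 1) scale the value of the low gene Col6a3 was smaller. Col6a2 had 27.2 and 26.4 RPKM in sham input, 11.3 and 10.7 in sham TRAP, 28.0 and 25.6 in band input and 10.9 and 10.7 in band TRAP, with log2 fold changes of -1.21 and -1.24. Col6a1 had 20.9 and 21.1, 8.31 and 9.36, 17.2 and 15.7 and 7.77 and 7.06 RPKM in that order, with log2 fold changes of -1.16 and -1.05. Col6a3, whose chain is the longest of the 3, had 2.40 and 2.31, 0.991 and 0.967, 2.17 and 2.35 and 1.31 and 0.990 RPKM, with log2 fold changes of -0.76 and -0.60. All 6 of these values were called. Mean RPKM in input exceeded that in TRAP after sham by 2.44-fold for Col6a2, 2.38-fold for Col6a1 and 2.40-fold for Col6a3. By that measure the gaps were alike after sham. After banding they were 2.49-fold, 2.22-fold and 1.97-fold in the same order.

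Of the multiplexins, which lie where basement membrane meets matrix, Col15a1 had a wider gap than Col18a1, the source of the fragment endostatin. Mean RPKM in input exceeded that in TRAP by 2.97-fold after sham and 2.85-fold after banding for Col15a1. For Col18a1 it did so by 1.51-fold and 1.61-fold. Col15a1 had 11.9 and 12.1 RPKM in sham input, 4.11 and 3.94 in sham TRAP, 11.5 and 10.5 in band input and 4.16 and 3.56 in band TRAP, with log2 fold changes of -1.37 and -1.30. Col18a1 had 1.00 and 0.859, 0.584 and 0.645, 1.48 and 1.68 and 0.898 and 1.06 RPKM in that order, with log2 fold changes of -0.26 (limma adjusted p = 0.0754) and -0.38 (adjusted p = 0.0193). Only the latter was called, and it was lost without band input 2 (adjusted p = 0.0925). The sham value was called with a pseudocount of 0.1 (adjusted p = 0.0442), with rescaling (0.0337) and by voom on reads (0.0408).

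The FACIT genes Col14a1 and Col16a1 were low and were called lower in both operations. Col14a1 had 1.45 and 1.46 RPKM in sham input, 0.507 and 0.493 in sham TRAP, 1.28 and 0.977 in band input and 0.429 and 0.364 in band TRAP. Col16a1 had 1.11 and 0.982, 0.445 and 0.455, 1.34 and 1.34 and 0.602 and 0.444 RPKM in that order. TRAP and input libraries did not overlap for either gene. The Col16a1 call after sham (limma adjusted p = 0.00753) was lost without sham input 1 (0.0612) or sham TRAP 1 (0.0506). The short-chain gene Col8a1 had log2 fold changes of -0.68 and -0.82, and its call after sham (limma adjusted p = 0.00641) was lost without sham input 2 (0.0516).

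**Figure D3:**
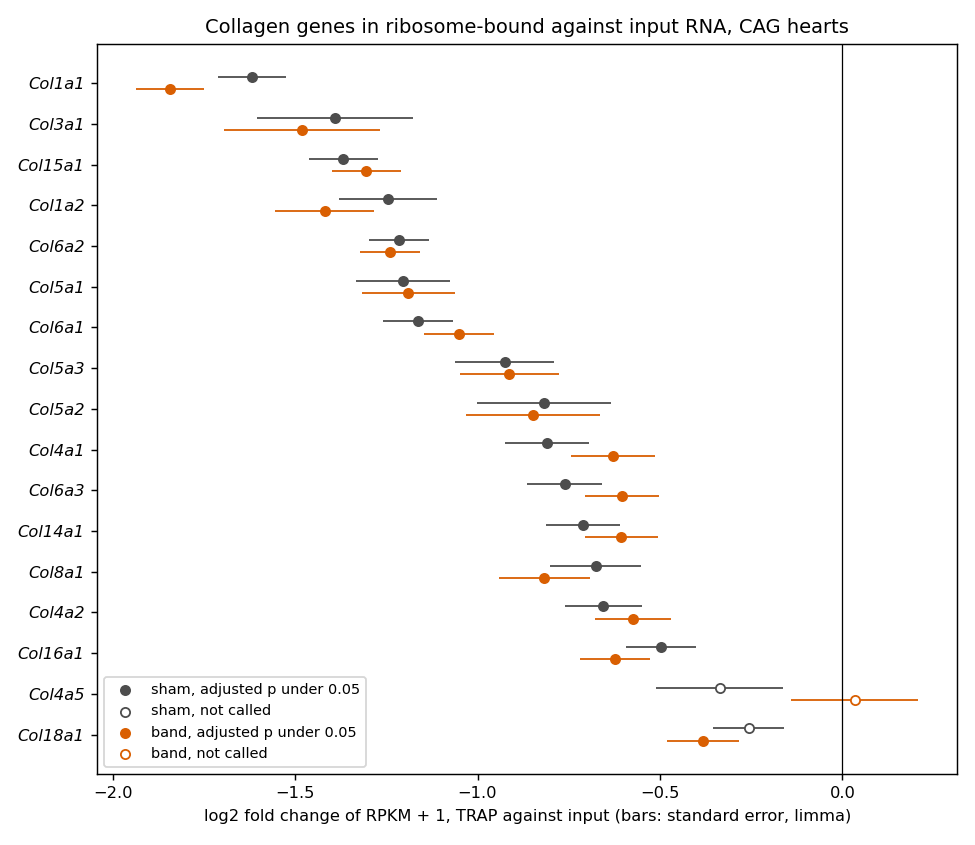
Log2 fold change of RPKM + 1 in TRAP against input for each of the 17 tested collagen genes after sham (grey) and banding (orange), with the standard error of the limma fit as bars and open symbols where adjusted p was 0.05 or more. Col1a1 is lowest in both operations, and Col4a5 after banding is the single value above 0.

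Transcript length and scaling moved with this result. The tested collagen transcripts had a median length of 6119 bases against 2604 over all genes tested. With the length trend of each library removed, 12 of 17 remained called lower after sham (median -0.42) and 11 after banding (median -0.54), and Col4a5 was then called higher after banding (log2 fold change 0.40, limma adjusted p = 0.0466). Col5a2, Col6a3 and Col16a1 lost the call after sham, and Col4a1, Col4a2, Col6a3, Col14a1 and Col18a1 after banding. Quantile normalization moved the median of all genes after sham from -0.09 to 0.05 and rescaling without abundant genes moved it to -0.21, and the collagen counts lower were then 14 and 16. The split of all called genes shifted with those scalings, from 1763 higher and 2852 lower to 2053 and 1851 and to 1181 and 3918. Fibroblast markers moved the same way, 9 of 10 lower after sham and 8 of 10 after banding, with summed levels of 549 and 549 RPKM in sham input, 225 and 237 in sham TRAP, 424 and 405 in band input and 210 and 152 in band TRAP, and none at 0. Smooth muscle and pericyte markers were lower for 6 of 10 in each operation, and macrophage markers for 9 and 10 of 10. Endothelial markers were lower for 3 of 14 in each operation. Beside these marker counts, 24.5% of all genes tested were called lower after sham and 26% after banding, so the endothelial count was not above the background. The part of these cell types in the collagen values was not tested.

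Among the 26 genes that did not pass the RPKM filter, several had enough reads for a test. RPKM multiplied by length gave whole reads for all 233410 positive values, and limma voom on those reads, run for the 37 collagen genes with 10 reads or more in at least 2 libraries, was added after the data had been seen. It called 22 of 37 lower in TRAP after sham, with 21.4% of 16326 genes called lower, and 21 after banding, with 23.5%. The fibrillar gene Col27a1, at 0.323 and 0.290 RPKM in sham input and 0.122 and 0.141 in sham TRAP, had a log2 fold change of -1.21 (adjusted p = 0.00905). Col4a3, a chain known from kidney basement membrane, had 0.282 and 0.301 RPKM in sham input and 0.0759 and 0.106 in sham TRAP, and a log2 fold change of -1.66 (adjusted p = 0.00815). After banding Col27a1 was also called (-1.05, voom adjusted p = 0.00715), and Col4a3 was not (-0.92, adjusted p = 0.0943). Of the membrane-anchored collagens, 2 had TRAP and input values close together after sham. Col13a1 had 0.673 and 0.641 RPKM in sham input and 0.643 and 0.658 in sham TRAP (voom log2 fold change -0.02, adjusted p = 0.961), and Col23a1 had 0.271 and 0.273 and 0.279 and 0.224 (log2 fold change -0.13, adjusted p = 0.809). Col17a1, another of them, stood lower, at 0.0293 and 0.0162 RPKM in sham input, 0.0152 and 0.0171 in sham TRAP, 0.0438 and 0.0396 in band input and 0.0142 and 0.0150 in band TRAP. After banding its voom log2 fold change was -1.40 (adjusted p = 0.105), with 3 and 4 reads in the TRAP libraries, and limma without a filter called it lower.

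Banded hearts were then compared with sham hearts in each fraction, the contrast of pressure overload. Few collagen genes were called in this contrast, which does not show that the others were level. In input 2 of 17 genes, Col8a1 and Col1a1, were higher and 0 lower, where 2.44% of all genes tested were called higher. In TRAP only Col8a1 was higher, where 2.21% were called higher. The median log2 fold change of the 17 was 0.03 in input and 0.07 in TRAP, against -0.01 and -0.01 over all genes.

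Col8a1 encodes a chain of the short-chain collagen VIII, known from the layer under vascular endothelium. It stood at 2.45 and 2.95 RPKM in sham input and 7.56 and 8.16 in band input. In TRAP it stood at 1.30 and 1.32 after sham and 4.55 and 3.55 after banding. Every banded library exceeded every sham library of its fraction, by 2.91-fold of the mean RPKM in input and 3.09-fold in TRAP. The log2 fold change was 1.26 (SE 0.12, limma adjusted p = 0.00519) in input and 1.12 (SE 0.12, adjusted p = 0.00673) in TRAP. With 1 library fewer the input call was lost without sham input 1 (adjusted p = 0.0661), sham input 2 (0.0541) or band input 2 (0.0615), and the TRAP call without sham TRAP 1 (0.0778) or sham TRAP 2 (0.0763). The ratio of Col8a1 to Col3a1 was 0.0631 and 0.0821 in sham input, 0.208 and 0.278 in band input, 0.101 and 0.0910 in sham TRAP and 0.320 and 0.413 in band TRAP. Scaling a library by a single factor cannot move this ratio. The short-chain share of collagen RPKM was 0.912% and 1.14% in sham input and 2.46% and 3.05% in band input.

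Col1a1 stood at 34.0 and 33.8 RPKM in sham input against 49.0 and 44.2 in band input, a 1.38-fold difference of the means with no overlap. Its log2 fold change was 0.45 (SE 0.09, limma adjusted p = 0.0486), close to the threshold. The call was lost without sham input 1 (0.276), sham input 2 (0.293), sham TRAP 1 (0.118), sham TRAP 2 (0.118), band input 1 (0.233) or band input 2 (0.126). In TRAP the values were 10.6 and 10.2 after sham and 13.0 and 11.5 after banding, a log2 fold change of 0.22 that was not called (adjusted p = 0.245). The other type I chain and type III did not follow it to a call. Col1a2 had a log2 fold change of 0.20 in input (adjusted p by limma = 0.495) and Col3a1 of -0.18 (adjusted p = 0.724).

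Ratios of chains within a library set these genes side by side without a scaling. The Col1a1 to Col3a1 ratio was 0.877 and 0.941 in sham input and 1.35 and 1.50 in band input. In TRAP it was 0.825 and 0.701 after sham and 0.916 and 1.34 after banding. Col1a1 thus exceeded Col3a1 in both banded input libraries and in no sham library, while Col1a2 stayed below Col3a1 in both banded inputs. The Col1a1 to Col1a2 ratio was 1.28 and 1.33 in sham input, 1.49 and 1.61 in band input, 0.994 and 0.997 in sham TRAP and 1.08 and 1.24 in band TRAP, so it was higher after banding and lower in TRAP, with no overlap in either fraction or operation. Col4a1 to Col4a2, the pair with overlapping promoter windows printed above, stayed between 0.989 and 1.17 in the 8 operated libraries. Col6a2 to Col6a1 was 1.30 and 1.25 in sham input and 1.63 and 1.63 in band input. With 2 libraries against 2, an exact permutation test of any such ratio cannot go below p = 0.333, so no test is given for them.

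**Figure D4:**
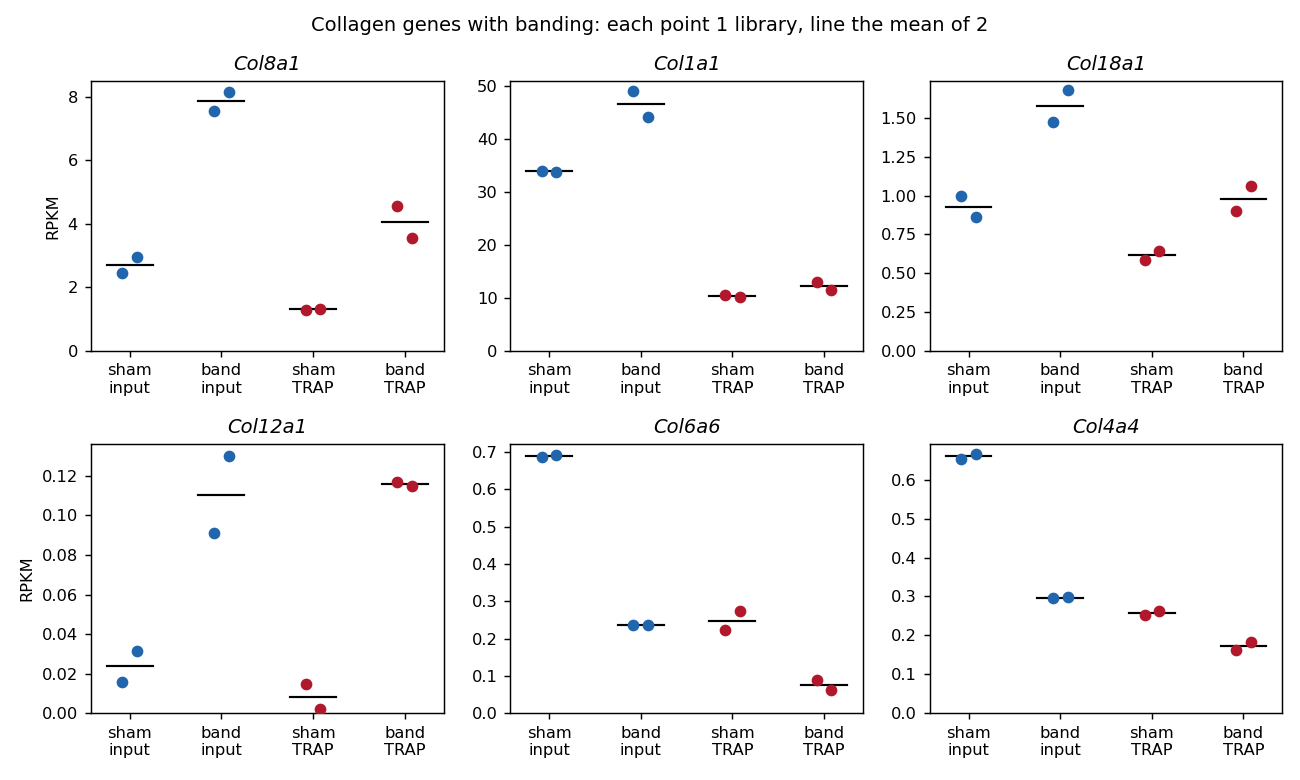
RPKM of Col8a1, Col1a1, Col18a1, Col12a1, Col6a6 and Col4a4 in each operated library (blue input, red TRAP), with the mean of 2 libraries as a line and each vertical axis starting at 0. Col8a1 and Col12a1 are higher in every banded library, and Col6a6 and Col4a4 are lower in every banded library of the same fraction.

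With all libraries in the limma fit, no other expressed member was called. Col18a1 stood at 1.00 and 0.859 RPKM in sham input and 1.48 and 1.68 in band input, without overlap (log2 fold change 0.42, limma adjusted p = 0.0686). Its mean RPKM differed by 1.70-fold in input and 1.59-fold in TRAP, more than the 1.38-fold and 1.19-fold of Col1a1. On the log2 scale of the fit, which understates the change of low genes, the input values were 0.42 against 0.45. Col6a1 fell outside a call in the other direction, with 20.9 and 21.1 RPKM in sham input and 17.2 and 15.7 in band input (log2 fold change -0.34, limma adjusted p = 0.114). For the remaining 13 genes the log2 fold changes lay between -0.21 and 0.26 in input, with no call.
Leaving out a TRAP library of banded hearts changed calls elsewhere. Such a fit leaves 1 library in band TRAP, and its calls over all genes tested rose as well in both fractions. The calls gained are therefore not read as a result about collagens. Either omission added calls in input, higher for Col18a1 (log2 fold change 0.42) and lower for Col6a1 (-0.34), at unchanged log2 fold changes. In TRAP, Col3a1 was called lower without band TRAP 1 (-0.61). Without band TRAP 2, Col4a2 (0.41) and Col5a2 (0.50) were called higher in TRAP beside Col8a1. These libraries differed in marker sums, 210 against 152 RPKM for fibroblast and 1758 against 924 RPKM for endothelial markers, and the latter was mostly Fabp4 (1603 against 785 RPKM), with 155 against 139 RPKM for the other 13. The part of that difference was not tested.

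Banding differences among members under 1 RPKM appeared in the voom test on reads. For input that test called 2 of 37 genes higher (1.64% of all genes) and 2 lower (0.888%), and for TRAP 2 higher (1.7%) and 1 lower (1.08%). Col12a1, a FACIT collagen known from stressed and healing connective tissue, had 9 and 12 reads in sham input, 30 and 54 in band input, 6 and 1 in sham TRAP and 51 and 63 in band TRAP. All 4 banded libraries exceeded all 4 sham libraries, although the level stayed at or under 0.130 RPKM. Its voom log2 fold change was 4.11 in TRAP (SE 0.75, adjusted p = 0.0311) and 2.31 in input (SE 0.56, adjusted p = 0.0765). Col6a6, a minor type VI chain, had 238 and 162 reads in sham input and 48 and 61 in band input. In TRAP it had 56 and 81 reads after sham and 24 and 21 after banding. Its voom log2 fold change was -1.53 in input (adjusted p = 0.0137) and -1.74 in TRAP (adjusted p = 0.0331). Col4a4, a chain of the same type IV molecule as Col4a3, stood at 0.653 and 0.667 RPKM in sham input and 0.295 and 0.298 in band input, a voom log2 fold change of -1.14 (adjusted p = 0.0209).

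Whether banding changed the TRAP to input ratio was tested as the interaction of operation and fraction. By limma 0 of the 17 genes were called, 0% of all genes tested, and 0 of the 17 passed an unadjusted p of 0.05, as did 557 of all genes. By voom on reads 0 of 37 were called, also 0% of all, and 2 passed an unadjusted p of 0.05. Without band TRAP 1, 197 of all genes and 0 of the 17 were called, and Col1a1, Col1a2 and Col3a1 passed unadjusted (limma adjusted p = 0.248, 0.294 and 0.293). Without band TRAP 2, 78 of all genes and 0 of the 17 were called, and Col4a5 passed unadjusted (limma adjusted p = 0.182). The interaction of Col1a1 was -0.22 on the log2 scale (SE 0.13) and that of Col4a5 0.37 (SE 0.25), the members farthest from 0, each with a limma adjusted p of 0.992. With standard errors of this size a missed threshold does not show that the ratios were alike.

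Without surgery the lines could be set side by side only as single libraries, so values are given with no test. In CAG hearts 17 collagen genes had at least 1 RPKM in either library, and 14 had it in both. All 14 were lower in TRAP than in input, as were 63.2% of all genes with 1 RPKM in both, and 7 of them (Col1a1, Col1a2, Col3a1, Col5a1, Col5a3, Col14a1 and Col15a1) had an RPKM ratio over 2, against 12.1% of all. Col5a2, Col8a1 and Col16a1 reached 1 RPKM in input alone, so their direction was set by that choice. On the log2(RPKM + 1) scale 4 of the 17 (Col1a1, Col1a2, Col3a1 and Col15a1) were more than 2-fold lower, against 8.2% of all genes. Col1a1 stood at 31.3 RPKM in CAG input and 12.5 in CAG TRAP, and Col15a1 at 15.1 and 5.42. The order of fractions was thus that of the sham and banded CAG hearts. The median log2 ratio of RPKM was -0.95 over the 14 against -0.23 over all genes with 1 RPKM in both libraries. With the length trend of log2(RPKM + 1) removed, 12 of the 17 were lower, none by more than 2-fold, and with quantile normalization 16 of 17.

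In the Tie2 line the direction was the other. Of 17 collagen genes with at least 1 RPKM in both libraries, 16 had more RPKM in TRAP than in input, as did 69.4% of all such genes. An RPKM ratio over 2 was found for 4 (Col4a1, Col5a2, Col8a1 and Col18a1), against 38.9% of all. Their median log2 ratio of RPKM was 0.55 and that of all genes 0.65, so the family lay near the background of this pair of libraries. Col4a4, Col13a1 and Col23a1 reached 1 RPKM in TRAP alone, so their direction was set by that choice and they are given as values. Counted with them, on the log2(RPKM + 1) scale, 5 of 20 (Col4a1, Col8a1, Col13a1, Col18a1 and Col23a1) were more than 2-fold higher. Col13a1 and Col23a1 stand in that count through the choice, so it is given as a description only. The share of all genes with 1 RPKM in either library was 34.1%, and it too holds genes let in by 1 library. All collagen reads were 0.213% of Tie2 input (Wilson 95% interval 0.211% to 0.214%) and 0.353% of Tie2 TRAP (0.351% to 0.355%), intervals that cover counting error only. Directions of single genes depended on the scaling. With reads of the most abundant genes left out of the scaling, 13 of 20 were above input. With quantile normalization 9 of the 17 that could be fitted were, and with the length trend removed 10 of 17. Col1a2, Col3a1, Col4a1, Col4a2, Col5a2, Col6a3, Col8a1, Col15a1 and Col18a1 were above input under all 5 settings run.

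Of the 20 genes the widest Tie2 gap was that of Col23a1, a collagen with a membrane-spanning segment, which stood at 0.770 RPKM in Tie2 input (219 reads) and 7.80 in Tie2 TRAP (1708 reads), 10.1-fold higher. In the 10 CAG libraries it stayed between 0.103 and 0.446 RPKM. Col18a1 stood at 3.36 and 11.3 RPKM, 3.35-fold higher, and Col8a1 at 1.42 and 4.45, 3.13-fold. Col4a4 stood at 0.520 and 1.58 RPKM and Col13a1, also membrane-anchored, at 0.988 and 2.99. Next came Col4a1, at 54.2 and 139.8 RPKM, the latter the highest level of any collagen gene in any library. Col4a2 stood at 55.3 and 87.9, so the Col4a1 to Col4a2 ratio was 0.981 in Tie2 input and 1.59 in Tie2 TRAP, above its range in the other 11 libraries.

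At the other end, Col4a5 was the 1 gene of the 20 lower in Tie2 TRAP, at 2.69 RPKM against 4.14 in input. Col5a3 was level at 4.20 and 4.28, and Col1a1 nearly so at 49.9 and 55.6. Col6a2 stood at 43.2 and 50.4 and Col5a1 at 8.19 and 10.6 RPKM. Fibrillar genes were not absent from this fraction. Col3a1 stood at 48.1 RPKM in input and 78.3 in TRAP, and Col1a2 at 31.0 and 45.4. Fibroblast markers also had a higher sum there, 694 RPKM in Tie2 input and 1192 in Tie2 TRAP, with none at 0. An RPKM ratio over 2 was found for 7 of 10, against 38.9% of all genes with 1 RPKM in both libraries. Dcn stood at 87.0 and 372 RPKM, while Gsn, which made up most of the input sum, was not higher, at 482 and 448 RPKM. Macrophage markers summed to 430 and 3615 RPKM, smooth muscle and pericyte markers to 342 and 218 RPKM, and endothelial markers to 1452 and 13270 RPKM. The part of these cells in the collagen levels was not tested.

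**Figure D5:**
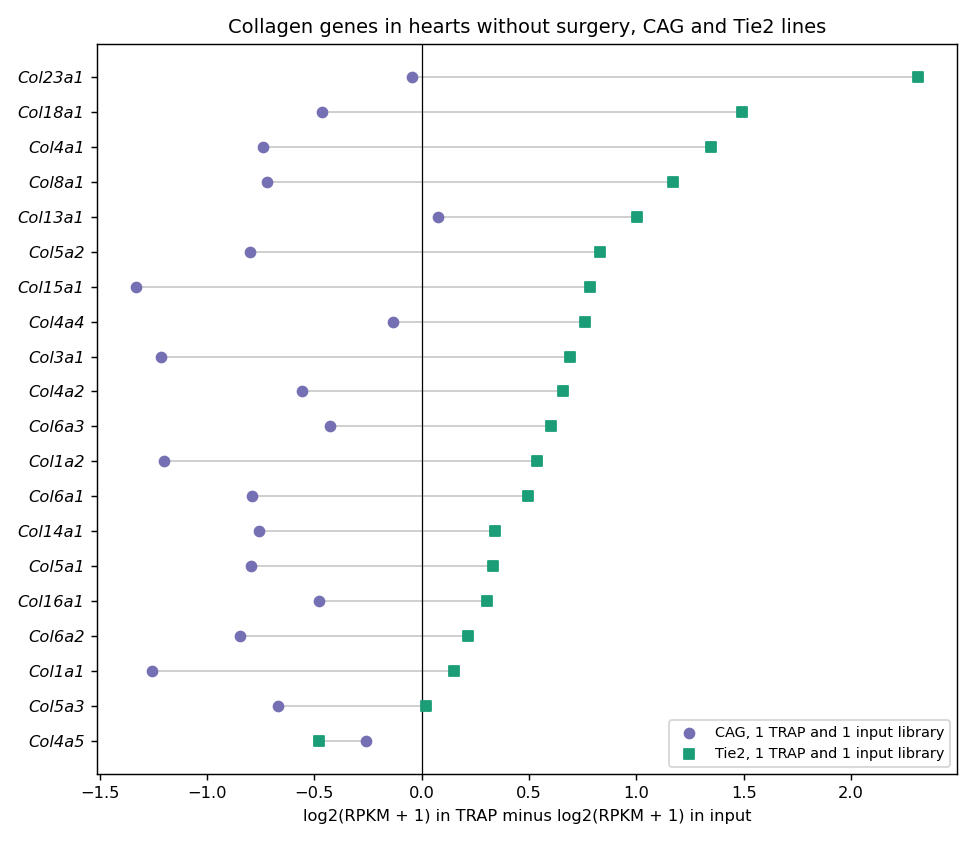
Log2(RPKM + 1) in TRAP minus that in input for the 20 collagen genes with at least 1 RPKM in a Tie2 library, in CAG (circles) and Tie2 (squares) hearts without surgery, 1 library per fraction and no error. The squares lie to the right of the circles for every gene except Col4a5, and Col23a1 is farthest right.

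Genes that make, process, bind and break down collagen were read beside the family. Of 16 tested genes of collagen synthesis and secretion, 3 were lower and 1 higher in TRAP after sham and 6 were lower and 1 higher after banding. Beside the 24.5% and 26% of all genes called lower, the sham count was not above the background. Serpinh1, the collagen chaperone of the endoplasmic reticulum, stood at 103 ± 0.878 RPKM in sham input and 69.4 ± 1.76 in sham TRAP (SD, n = 2 libraries), a log2 fold change of -0.57 (adjusted p by limma = 0.00402). Creb3l1, a membrane-bound transcription factor known to drive collagen secretion genes, was lower by -0.77 after sham and -1.07 after banding on the log2 scale, and the prolyl 3-hydroxylase Leprel2 by -0.57 and -0.75. P4ha1, a prolyl 4-hydroxylase subunit that lets the helix hold, stood at 11.0 ± 0.995 RPKM in sham input and 9.32 ± 0.0699 in sham TRAP and was not called (log2 fold change -0.22, limma adjusted p = 0.136). The cyclophilin Ppib was higher in TRAP after sham (log2 fold change 0.47, limma adjusted p = 0.0399). With banding, 0 of these 16 genes were called in either fraction.

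Of 9 tested genes of procollagen processing and crosslinking, 7 were lower in TRAP after sham and 8 after banding, with 1 higher. Of all genes tested, 24.5% were called lower after sham and 26% after banding, and 1938 of 11654 were called higher after banding. Loxl2, a lysyl oxidase, had log2 fold changes of -1.05 and -1.23, the procollagen protease Adamts2 -0.79 and -0.89, and Pcolce, which speeds the removal of the procollagen tail, -0.75 and -0.99. After banding 2 genes of this group rose in input, the transglutaminase Tgm2 (log2 fold change 0.54, limma adjusted p = 0.0151) and Loxl1 (0.55, adjusted p = 0.0217), and Tgm2 rose in TRAP (0.59, adjusted p = 0.0104). In that contrast 2.44% of all genes tested were called higher in input and 2.21% in TRAP. Lox, the founding lysyl oxidase, stood at 0.411 ± 0.0347 RPKM in sham input and 1.31 ± 0.117 in band input (SD, n = 2) and was not called (limma adjusted p = 0.0555).

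Fibril partners were mostly lower in TRAP and mostly not called with banding. Of 14 tested, 9 were lower in TRAP after sham and 8 after banding, where 24.5% and 26% of all genes tested were called lower. Biglycan, Bgn, had log2 fold changes of -1.24 and -1.61 and decorin, Dcn, of -0.95 and -0.82, while Prelp had -0.91 after sham. Sparc, a collagen-binding matricellular protein, stood at 289 ± 2.18 RPKM in sham input and 181 ± 0.0266 in sham TRAP (SD, n = 2), a log2 fold change of -0.67. With banding only Fn1, fibronectin, was called, at 1.79 ± 0.0422 RPKM in sham input and 3.20 ± 0.0868 in band input (log2 fold change 0.59, limma adjusted p = 0.034). Postn, periostin, stood at 1.76 and 1.73 RPKM in sham input and 4.53 and 5.65 in band input, without overlap, and was not called (log2 fold change 1.14, limma adjusted p = 0.0768). After banding Postn was lower in TRAP than in input by -1.18 on the log2 scale.

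Of 4 tested receptors and uptake genes, Mrc2, an endocytic collagen receptor, and Ddr2, a kinase receptor for fibrillar collagen, were lower in TRAP in both operations. None of the 4 was called with banding, which does not show that their levels were alike. Mrc2 stood at 1.25 and 1.59 RPKM in sham TRAP and 1.95 and 1.87 in band TRAP, without overlap (log2 fold change 0.27, limma adjusted p = 0.208). Over all genes tested, 24.5% were called lower in TRAP after sham and 26% after banding, and of 6 tested breakdown genes 5 were lower in each operation. Mmp2, a gelatinase, had -1.14 and -0.97 on the log2 scale. Timp1, an inhibitor of matrix metalloproteinases, was the 1 gene of the group called with banding. It stood at 17.6 ± 1.04 RPKM in sham input and 121 ± 7.06 in band input (SD, n = 2), a log2 fold change of 2.71, and had a log2 fold change of 2.46 in TRAP. Beside it Col8a1 had 1.26 in input and 1.12 in TRAP.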

How the data were processed

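Messenger RNA of mouse hearts was sequenced from poly(A)-selected, unstranded libraries, per the labels' protocols. The authors deposited RPKM values, which divide reads by gene length and library depth, with a length for each of 34306 genes in 12 libraries. The submitters' processing notes name CASAVA 1.8.2, TopHat 1.4, HTSeq 0.5.3 and the NCBIM37 build, with no settings, and how the labels' lanes became 1 column is not stated.

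Group means of log2(RPKM + 1) were fitted to all 12 libraries with limma 3.58.1 (trend, two-sided, 4 residual and 3.02 prior degrees of freedom, R 4.3.3). Genes had 1 RPKM or more in at least 2 libraries (11654 genes), and p-values were Benjamini-Hochberg adjusted over all of them. The fit was tested on simulated data. RPKM times length gave whole reads (tolerance 0.02) for 233410 of 233410 positive values, so limma voom could be run on reads as an alternative. Depth was 26568988 to 94878619 reads. The whole reads do not separate molecules from PCR copies, so intervals cover counting error only. Single-library pairs received no test.

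The collagen genes, the pathway and marker lists and the naming rule were chosen with earlier results of these data known. Every collagen gene was accounted for. Values by library were given for up to 3 of the most abundant genes of each class that passed the filter, the called genes of largest change and the 5 highest and 5 lowest Tie2 TRAP to input ratios. Each other list was given by its counts and its 3 largest called changes, with 7 genes always named. Columns were matched to groups by line, operation and fraction. Libraries of the first deposit were not analysed here. Alternatives were the pseudocount, the filter, the scaling, a length correction, voom, the operated libraries alone, a replicate block and leaving out each operated library.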

Additional observations from a re-analysis of the deposited data

Results flagged for a closer look

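For 16 collagen genes every CAG TRAP library lay below every input library of the same group, sham, banded or without surgery. For these genes the Tie2 TRAP library lay above the Tie2 input library. The difference between the lines was not tested, since the Tie2 pair is 1 library a side. On the log2(RPKM + 1) scale, Tie2 TRAP minus Tie2 input was 1.49 for Col18a1, 1.35 for Col4a1, 1.17 for Col8a1, 0.83 for Col5a2, 0.784 for Col15a1, 0.692 for Col3a1, 0.66 for Col4a2 and 0.602 for Col6a3. For the other 8 genes it was 0.535 for Col1a2, 0.498 for Col6a1, 0.34 for Col14a1, 0.332 for Col5a1, 0.305 for Col16a1, 0.218 for Col6a2, 0.153 for Col1a1 and 0.0199 for Col5a3. The median over all genes with at least 1 RPKM in either Tie2 library was 0.609, and 9 of the 16 genes lay under it. With abundant genes left out of the scaling Col1a1, Col5a1, Col5a3, Col6a2, Col14a1 and Col16a1 changed sign, and with quantile normalization Col6a1 did as well.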

How the results depend on the processing

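The count of collagen genes lower in TRAP after banding was 16 and became 10 with a filter at 5 RPKM, which left 10 of them to test. The count higher after banding in input was 2 and became 3 by voom on reads of the 11654 genes, which added Col18a1. It became 1 with a pseudocount of 0.1, 1 with no filter and 1 with a replicate block, and it changed with the library left out. The block took the limma adjusted p of Col1a1 to 0.0672. The count higher in TRAP was 1 and became 2 by voom on reads with the read filter (added after seeing the data) and 0 to 3 on leaving out 1 library. On the log2(RPKM + 1) scale, 5 of 20 genes at 1 RPKM in either library were over 2-fold above input in Tie2 TRAP. That count became 6 with a pseudocount of 0.1 and 2 with rescaling. Quantile normalization and removal of the length trend could be run for 17 of these genes, without Col4a4, Col13a1 and Col23a1. Each of them gave a count of 1, which is not on the same set of genes as the 5. The count over 2-fold below input in unoperated CAG TRAP was 4 and became 8 with a pseudocount of 0.1 and 0 with the length trend removed. The cause was not tested. The replicate block changed no other call of a collagen gene, and same-numbered libraries did not deviate together (correlations of -0.434 to 0.11). Over the 34 called gene results, 567 of 601 alternative values kept their direction and call, 34 lost the call and 0 changed direction. With 2 libraries a group, small differences were not detectable at this depth of replication, and levels under 1 RPKM rest on few reads.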
